A study of Mus musculus with 6 samples.

Results

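The MHC class II genes were followed in cultured CD8+ T effector cells (Teff) from WT and Scd-1-/- mice, in 3 libraries of each genotype. The set was chosen by gene name, with earlier results of these data known. It comprised 10 genes: Cd74, H2-Aa, H2-Ab1, H2-Eb1, H2-DMa, H2-DMb1, H2-DMb2, H2-Oa, H2-Ob and Ciita. The study had already named Cd74 as higher in WT Teff. Shares of the set given beside those of all genes are therefore descriptions and not independent tests. All 10 were among the 34745 genes of the deposited tables, and all 10 had a count in each of the 6 libraries, so that none was lost from the fit to the 17192 genes with a count. WT cells came from purchased C57BL/6J mice and Scd-1-/- cells from a donated B6.129-Scd1tm1Ntam/J line, in which the desaturase gene Scd1 is disrupted in the germline and therefore in every cell type. The study's methods give male mice of 6 to 8 weeks and do not describe the groups as littermates. In both groups, splenic CD8+ T cells were isolated with a kit, given anti-CD3 (5 μg/mL), anti-CD28 (0.5 μg/mL) and IL-2 (100 U/mL) for 3 days, kept for 3 further days in IL-2, and harvested on day 6. The methods speak in general terms of independent experiments for each result. Neither the labels nor the methods say whether same-numbered libraries share a day or a culture, or whether replicates came from separate mice, so that p-values measure the spread between these libraries, which may be technical.

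The libraries held 14034479 to 15866216 counts. Scd1, the targeted gene, had 4272, 3074 and 3761 counts in WT and 30, 36 and 20 in Scd-1-/- libraries, which matched the labels (log2 fold change -7.05, SE 0.269, adjusted p = 8.36e-07, edgeR). The CD8 T cell genes Cd8a (27.9 to 47.6 FPKM), Cd8b1 (202 to 330 FPKM) and Cd3e (263 to 367 FPKM) were high in every library. Replicate 1 stood apart from replicates 2 and 3 in both genotypes, and same-numbered libraries deviated together from their group means (r of 0.306 to 0.595). Replicates 2 and 3 were not clearly paired, since WT replicate 3 and Scd-1-/- replicate 2 had an r of 0.380. Values are also given from a fit with the replicate number as a block wherever it changes a call. That block was chosen from these same values, so its smaller p-values rest on a pairing that no label states.

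MHC class II molecules are pairs of an alpha and a beta chain that show peptides from the endocytic route to CD4+ T cells. The invariant chain, encoded by Cd74, escorts new pairs to that route, the H2-DM pair then exchanges the last piece of the invariant chain for peptide, and the H2-DO pair restrains H2-DM. B cells, dendritic cells and macrophages express most of these genes strongly under the transactivator CIITA, which is recruited by proteins bound to the promoters of class II genes. Activated mouse T cells are commonly described as poor in class II expression.

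The 10 genes spanned a wide range of levels. H2-Ab1, the A beta chain, was the highest with a mean over the 6 libraries of 41.7 FPKM (counts divided by the gene's length and by the library's total), followed by H2-DMa with 24.7 and H2-Oa with 20.8 FPKM. These lay at the 92.4, 87.8 and 85.9 percentile of all genes with a count. H2-DMb2 (5.41 FPKM), Cd74 (2.72), H2-DMb1 (2.58), H2-Eb1 (1.84) and H2-Ob (1.15 FPKM) were in the middle of the range. H2-Aa, the A alpha chain, reached 0.199 FPKM, and Ciita was the lowest with 0.0491 FPKM. H2-Ab1, H2-DMa and H2-Oa together made up 80.6% to 92.0% of the FPKM summed over the set. Over the 6 libraries, the range of each gene overlapped that of the next in this order, except that H2-Oa (9.74 FPKM or more) stayed above H2-DMb2 (6.98 FPKM or less).

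**Figure D1:**
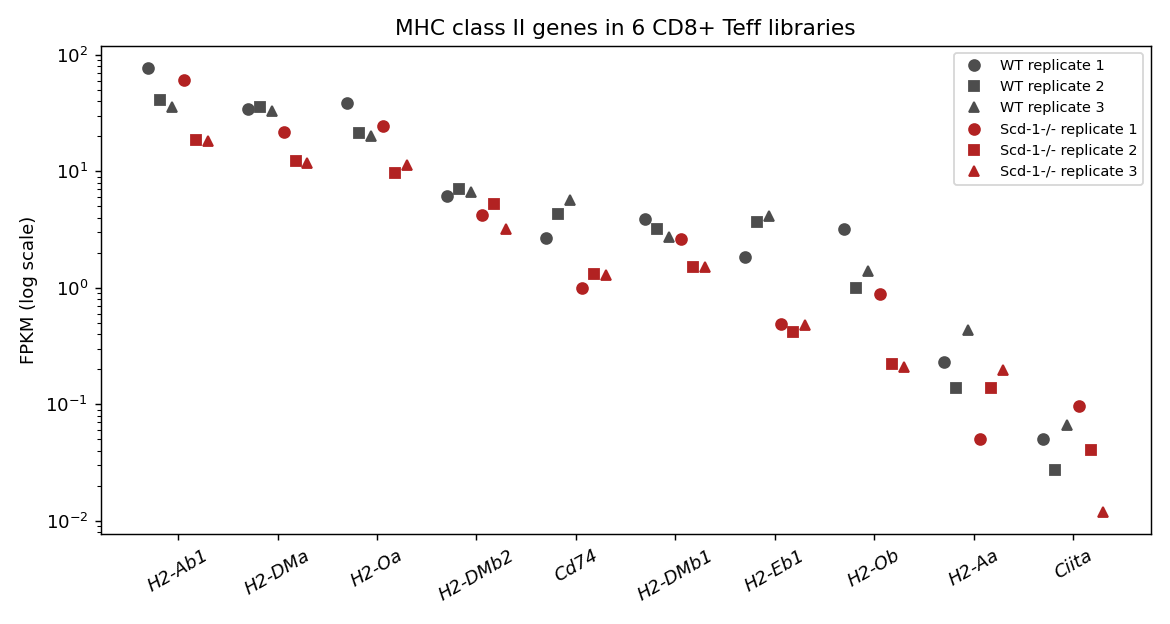
FPKM of the 10 MHC class II genes on a log scale, 1 point for each library, with genes ordered by their mean over the 6 libraries. WT is grey and Scd-1-/- red, and the shape gives the replicate number. The Scd-1-/- points lie under all WT points for 6 genes (7.33% of all genes tested do so), and H2-Ab1 is high in replicate 1 of both genotypes (76.7 and 60.7 FPKM).

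Summed over the set, FPKM were 167, 116 and 110 in WT and 117, 49.3 and 48.0 in Scd-1-/- libraries. Scd-1-/- replicate 1 thus reached the level of WT replicates 2 and 3, and the groups overlapped in the sum although each Scd-1-/- library was lower than the WT library of its number. The question put to each gene was whether it differed between the genotypes beyond the spread between libraries. H2-Eb1, Cd74 and H2-DMa were lower in Scd-1-/- Teff past the thresholds of the study (here a log2 fold change of -1 or lower with an unadjusted p under 0.001), that is 3 of 10 genes, against 55 of 17192 genes, or 0.32%, over the whole table. A Benjamini-Hochberg adjusted p under 0.05 in edgeR's quasi-likelihood test was reached by H2-Eb1 alone, against 0.174% of all genes in the lower direction. With the replicate block, 4 genes passed the thresholds (H2-Ob was added) against 0.855% of all genes, and 6 had an adjusted p under 0.05 (Cd74, H2-Ab1, H2-Eb1, H2-DMa, H2-Oa and H2-Ob) against 2.12%. No member was higher past either threshold in either fit. All 3 Scd-1-/- libraries lay under all 3 WT libraries for 6 of the 10 genes (Cd74, H2-Eb1, H2-DMa, H2-DMb1, H2-DMb2 and H2-Ob), as they did for 7.33% of all genes tested. The median log2 fold change was -0.91 over the 10 genes and -0.02 over all genes, with 9 of 10 and 52.0% of values below 0. In these bulk libraries, fewer cells that express a gene and less RNA of it per cell cannot be told apart.

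**Figure D2:**
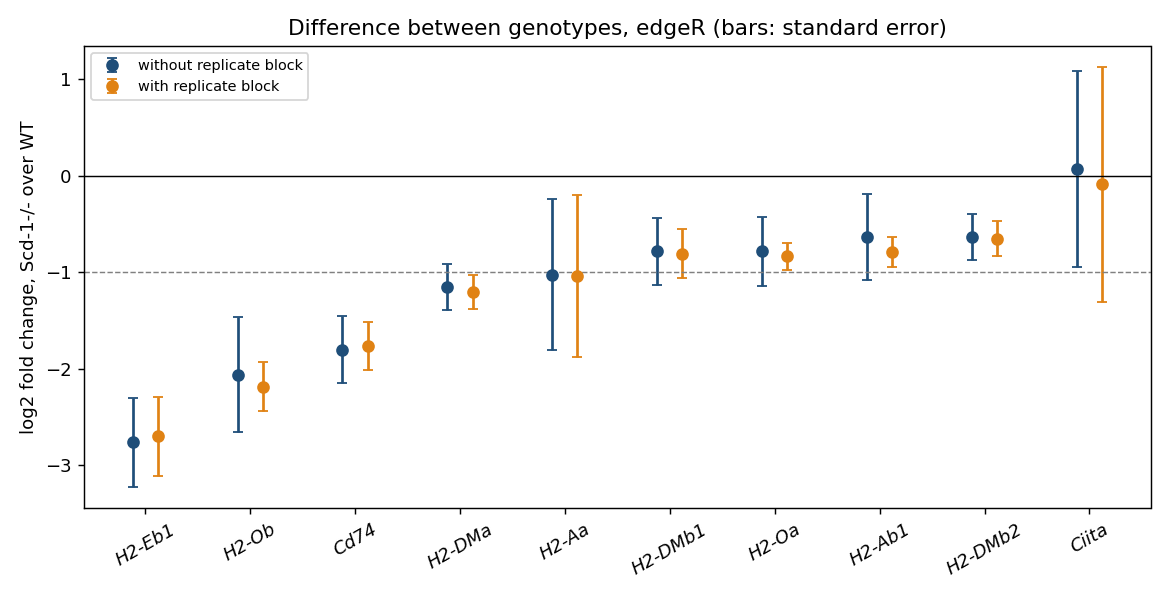
log2 fold change of Scd-1-/- over WT for the 10 MHC class II genes, ordered from the lowest, with bars for 1 standard error on either side, from edgeR without (blue) and with (orange) the replicate block. The dashed line is the study's threshold of -1. H2-Eb1 lies lowest at -2.76, H2-Ob, Cd74 and H2-DMa follow, and the block shortens the bars of H2-Ob, H2-Oa and H2-Ab1.

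Among the chains that bind peptide, H2-Eb1, the E beta chain, showed the widest difference. Its counts were 33, 61 and 70 in WT and 9, 7 and 9 in Scd-1-/- libraries, or 3.22 ± 1.22 against 0.462 ± 0.0375 FPKM (SD, n = 3 each). The Scd-1-/- libraries were alike and all lay under the lowest WT library, replicate 1. The log2 fold change was -2.76 (SE 0.463, adjusted p = 0.0359, edgeR) and -2.70 with the replicate block (adjusted p = 0.00433, edgeR). Its place past the study's thresholds was lost on leaving out Scd-1-/- replicate 2, and its adjusted p ranged from 1.00e-09 to 0.301 over the alternatives. The partner of this chain is the E alpha chain, which is a pseudogene in mice of the b haplotype such as C57BL/6, and the row of that pseudogene, H2-Ea-ps, had no count in any library. H2-Eb1 lies at chr17:34305867-34316674 (GRCm38, plus strand).

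H2-Ab1, the A beta chain, had 2739, 1337 and 1192 counts in WT and 2224, 619 and 675 in Scd-1-/- libraries. In FPKM these were 76.7, 40.5 and 35.6 against 60.7, 18.6 and 18.1, and the groups overlapped because Scd-1-/- replicate 1 was above WT replicates 2 and 3. The fitted log2 difference was -0.64 (SE 0.446, adjusted p = 0.747, edgeR). With the replicate block it was -0.79 (SE 0.156, adjusted p = 0.0174, edgeR), and the Scd-1-/- library was the lower in 3 of 3 same-numbered pairs, by -0.33, -1.15 and -0.92 on the log2 scale. The value depended on replicate 1, since it was -0.21 without WT replicate 1, and -1.44 and past the study's thresholds without Scd-1-/- replicate 1. Its adjusted p lay between 4.38e-09 and 0.942 over the alternatives. H2-Aa, the alpha chain of the same pair, had only 9, 5 and 16 counts in WT and 2, 5 and 8 in Scd-1-/- libraries. These overlapped, and the fitted value of -1.03 had an SE of 0.783 (adjusted p = 0.755, edgeR) and lay between -1.47 and -0.48 when 1 library was left out. The A chains were thus far apart in level, with 81.1 to 331 times as many FPKM of H2-Ab1 as of H2-Aa in WT and 91.8 to 1210 times in Scd-1-/- libraries. H2-Ab1 lies at chr17:34257689-34269419 and H2-Aa at chr17:34282744-34287823, on the plus and minus strands.

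Cd74, the invariant chain, had 82, 121 and 163 counts in WT and 31, 37 and 41 in Scd-1-/- libraries. The corresponding FPKM were 2.70, 4.30 and 5.72 against 0.994, 1.31 and 1.29, and every Scd-1-/- library was lower than every WT library. Its log2 fold change was -1.80 (SE 0.35, unadjusted p = 3.45e-04, adjusted p = 0.0593, edgeR). With the replicate block it was -1.76 (adjusted p = 0.0028, edgeR). Of the 6 fits that each left out 1 library, 2 kept Cd74 past the study's thresholds. It did not pass without WT replicate 2 or 3 or Scd-1-/- replicate 2 or 3, with p from 0.00111 to 0.00257. Cd74 was lower in replicate 1 than in replicates 2 and 3 of both genotypes, where H2-Ab1 was higher, and the ratio of H2-Ab1 to Cd74 in FPKM was 28.4 in replicate 1 and 9.40 and 6.22 in replicates 2 and 3 of WT, and 61.0, 14.2 and 14.0 in Scd-1-/-. Cd74 lies at chr18:60803848-60812652 (plus strand), apart from the other genes of the set.

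The H2-DM genes encode the peptide exchange factor. H2-DMa, its alpha chain, had 1150, 1093 and 1030 counts in WT and 749, 377 and 410 in Scd-1-/- libraries, or 34.4, 35.3 and 32.9 against 21.8, 12.1 and 11.7 FPKM. WT libraries were close to each other, and among the Scd-1-/- libraries replicate 1 was the highest yet still under WT. The log2 fold change was -1.16 (SE 0.242, unadjusted p = 6.29e-04, adjusted p = 0.0838, edgeR), and -1.21 with the replicate block (adjusted p = 0.0035, edgeR). H2-DMa stood past the study's thresholds in 1 of the 6 fits that left out 1 library, the one without Scd-1-/- replicate 1, with an adjusted p from 1.49e-16 to 0.525 over all alternatives. It fell short in a fit to genes averaging 1 FPKM or more (adjusted p = 0.174, edgeR). Brd2 overlaps H2-DMa on the opposite strand, with 360 shared exonic bases. Brd2 had 3551 to 4808 counts and a log2 fold change of -0.11 (SE 0.151, edgeR), and the strand setting of the counting is not given in the sources used here, so reads of the shared bases may belong to either gene.

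The beta chains of H2-DM had smaller differences. H2-DMb1 had 98, 74 and 65 counts in WT and 68, 35 and 40 in Scd-1-/- libraries, with a fitted log2 value of -0.78 (SE 0.344, adjusted p = 0.554, edgeR). H2-DMb2 had 236, 247 and 240 counts in WT and 166, 185 and 129 in Scd-1-/- libraries, with a log2 value of -0.64 (SE 0.239, adjusted p = 0.447, edgeR). Neither gene's groups overlapped, and neither reached an adjusted p under 0.05 with the replicate block (0.118 and 0.0723). These genes are near copies, with 76.6% identity between their longest transcripts, and how reads that match both were counted is not given in the sources used here. H2-DMa exceeded the sum of both beta genes by 3.42 to 3.48 times in WT and 1.81 to 3.18 times in Scd-1-/- libraries, in FPKM. H2-DMa, H2-DMb2 and H2-DMb1 follow one another on chromosome 17 at chr17:34119541-34139101, chr17:34143307-34151555 and chr17:34153072-34160230, all on the plus strand.

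H2-Oa and H2-Ob encode the chains of H2-DO. H2-Ob, the beta chain, had 262, 76 and 109 counts in WT and 75, 17 and 18 in Scd-1-/- libraries, or 3.17, 0.994 and 1.41 against 0.884, 0.221 and 0.208 FPKM. The highest Scd-1-/- library, replicate 1, came close to the lowest WT library, replicate 2, without overlap. The fitted log2 value was -2.06 (SE 0.595, adjusted p = 0.246, edgeR). It was -1.43 without WT replicate 1, and -3.07 and past the study's thresholds without Scd-1-/- replicate 1, with an adjusted p between 1.15e-09 and 0.804 over the alternatives. With the replicate block, which compares same-numbered libraries, H2-Ob passed the study's thresholds at -2.19 (SE 0.256, adjusted p = 0.00113, edgeR), and the differences within the 3 pairs were -1.83, -2.19 and -2.70. H2-Oa, the alpha chain, had 1264, 646 and 621 counts in WT and 837, 300 and 392 in Scd-1-/- libraries. Scd-1-/- replicate 1 again exceeded WT replicates 2 and 3, so the groups overlapped, and the fitted value was -0.78 (SE 0.358, adjusted p = 0.592, edgeR). It was -0.84 with the replicate block (SE 0.142, adjusted p = 0.00834, edgeR). Without WT replicate 1 it was -0.41, and without Scd-1-/- replicate 1 it was -1.29 and past the study's thresholds, with an adjusted p between 9.33e-06 and 0.942 over the alternatives. FPKM of H2-Oa were 12.0 to 21.2 times those of H2-Ob in WT and 27.9 to 54.4 times in Scd-1-/- libraries, ranges that did not overlap. H2-Oa lies at chr17:34092340-34095234 and H2-Ob at chr17:34238903-34254414. H2-Oa lies within the antisense gene BC051537, with 321 shared exonic bases, and that gene had 0 to 2 counts.

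Ciita, the transactivator, was at the limit of these libraries, with 4, 2 and 5 counts in WT and 8, 3 and 1 in Scd-1-/- libraries. Its groups overlapped, and the log2 difference of 0.07 had an SE of 1.02 (adjusted p = 0.997, edgeR), so that a difference in either direction was not detectable at this depth. Its sign turned in 5 of 12 alternatives. Ciita lies at chr16:10480059-10528418 (plus strand), where Dexi runs on the opposite strand with no shared exonic base.

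Replicate 1 did not move in 1 direction over the set. In both genotypes it was above the mean of replicates 2 and 3 for H2-Ob (2.64 times in WT and 4.12 times in Scd-1-/-), H2-Ab1 (2.02 and 3.31 times), H2-Oa (1.86 and 2.34 times) and H2-DMb1 (1.31 and 1.75 times). H2-DMb2 was at 0.903 and 1.00 times. H2-DMa was level in WT (1.01 times) and higher in Scd-1-/- (1.83 times). Cd74 was below in both (0.538 and 0.765 times), and H2-Eb1 was below in WT (0.469 times) and level in Scd-1-/- (1.09 times). Of the 4 genes whose groups overlapped, H2-Ab1 and H2-Oa were thus high in replicate 1 of both genotypes. H2-Aa was lower there (0.801 and 0.299 times) and Ciita was at 1.07 and 3.73 times, each on few counts.

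**Figure D3:**
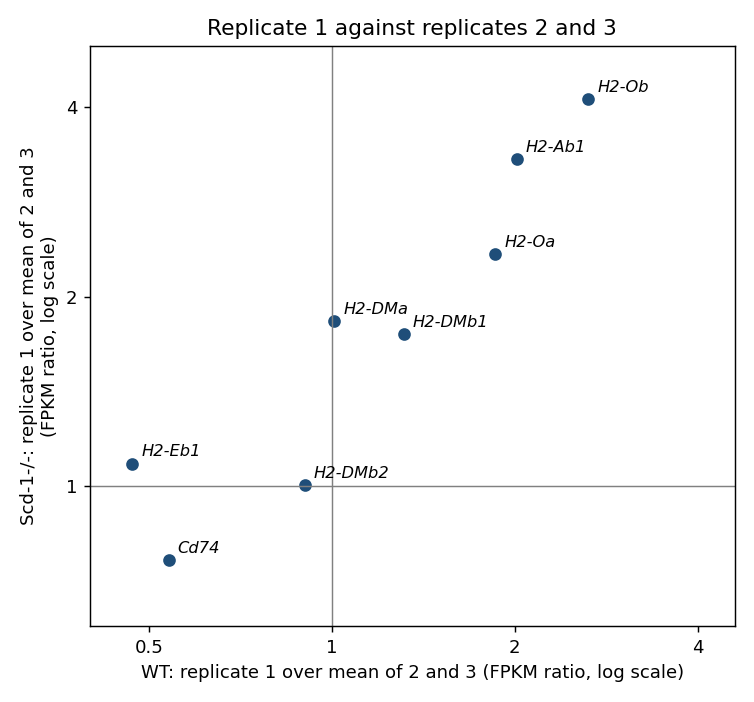
For 8 of the MHC class II genes, FPKM of replicate 1 over the mean of replicates 2 and 3, in WT (horizontal axis) and in Scd-1-/- (vertical axis), both as ratios on log scales with lines at 1. H2-Aa and Ciita, with at most 16 counts in a library, are left out. H2-Ob, H2-Ab1 and H2-Oa lie at the upper right (2.64 and 4.12 times for H2-Ob), and Cd74 lies below 1 on both axes.

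Of the 10 genes, 8 lie within 224.335 kb of chromosome 17 (chr17:34092340-34316674), an interval that also holds genes of the class I route. Tap1 and Tap2 encode the peptide transporter of that route, and Psmb8 and Psmb9 encode immunoproteasome subunits. None of 6 neighbouring genes passed a threshold without the block. Tap1 had 46.4, 44.7 and 37.1 FPKM in WT and 35.0, 25.1 and 22.0 in Scd-1-/- libraries, a log2 value of -0.63 (SE 0.187, adjusted p = 0.259, and 0.0102 with the replicate block, edgeR). Psmb9, whose groups did not overlap either, was at -0.48 (SE 0.166, adjusted p = 0.378, edgeR). Psmb8, the highest of these neighbours with 196 to 220 FPKM, was at -0.06, Tap2 at -0.09 and Brd2 at -0.11. H2-DMb1 on one side of the Tap and Psmb genes was at -0.78, and H2-Ob and H2-Ab1 on the other at -2.06 and -0.64. Brd2 lies between H2-Oa at -0.78 and H2-DMa at -1.16, and whether members and neighbours differ was not tested. Btnl2 had 6 counts in Scd-1-/- replicate 2 and none in the other libraries.

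**Figure D4:**
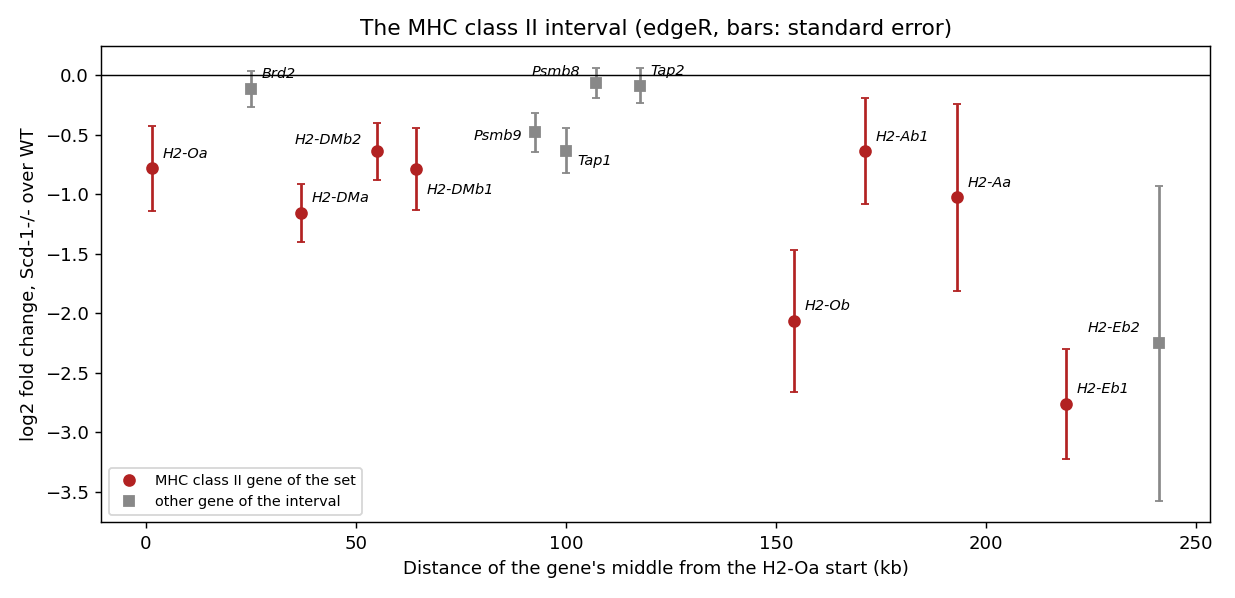
log2 fold change of Scd-1-/- over WT (edgeR without the block, bars 1 standard error) against the distance of each gene's middle from the start of H2-Oa, in kb. Class II members are red circles, and other genes of the interval and H2-Eb2 are grey squares, with H2-Ea-ps and Btnl2 not drawn. Psmb8, Tap2 and Brd2 lie between -0.11 and -0.06, Psmb9 at -0.48 and Tap1 at -0.63, and the 8 members between -2.76 and -0.64.

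Promoters of class II genes carry short conserved elements named the X box, bound by the RFX complex, and the Y box, bound by NF-Y. RefSeq promoter windows (GRCm38.p6, 250 bases before to 50 after a start) were at hand for 7 of the genes, with 2 windows for H2-DMa. They were searched on both strands for the Y box CTGATTGG, for its core ATTGG, which is contained in it, and for the X box core CCTAGNNAC. The Y box was found in 3 of the 8 windows, against 4.10% of the 32851 windows of all genes, and the core ATTGG in 7 of the 8, all but 1 of those of H2-DMa, against 37.4%. The X box core was found in 2 of the 8, those of H2-DMb1 and H2-Ob, against 3.91%. Only exact matches were counted, so a window without a match may still hold a variant of the element. The stretch from 120 to 39 bases before the RefSeq start is shown for the 5 genes with a match in it and no more than 1 base in an exon of the GENCODE model, to set members with the widest difference (H2-Eb1 and H2-Ob) beside others. Capitals mark matches, and each sequence runs 5′ to 3′ on the strand of its gene. Their places are chr17:34092259-34092340 for H2-Oa (plus strand, the last base being the first of the GENCODE gene), chr17:34145129-34145210 for H2-DMb2 (plus, within the span of the GENCODE gene but in no exon), chr17:34238785-34238866 for H2-Ob (plus), chr17:34287862-34287943 for H2-Aa (minus) and chr17:34305747-34305828 for H2-Eb1 (plus).
H2-Oa: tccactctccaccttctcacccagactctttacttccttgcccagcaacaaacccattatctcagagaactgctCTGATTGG
H2-DMb2: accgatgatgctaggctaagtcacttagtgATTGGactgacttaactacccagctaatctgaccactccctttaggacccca
H2-Ob: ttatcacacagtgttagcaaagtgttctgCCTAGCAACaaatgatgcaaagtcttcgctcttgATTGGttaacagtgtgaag
H2-Aa: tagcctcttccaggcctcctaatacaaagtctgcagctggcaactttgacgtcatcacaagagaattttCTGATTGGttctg
H2-Eb1: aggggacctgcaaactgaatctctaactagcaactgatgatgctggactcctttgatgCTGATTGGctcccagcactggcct

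The Y box began 46 bases before the start in H2-Oa, 51 in H2-Aa and 62 in H2-Eb1. H2-Ob held the core ATTGG 57 bases before its start and the X box core 91 bases before it, and H2-DMb1 held them at 61 and 98 bases, within an exon of its GENCODE model, so that stretch is not shown. H2-DMb2 held the core 90 bases before the start. Members with the complete Y box thus ranged from H2-Eb1 at -2.76 to H2-Oa at -0.78 in log2 fold change, with H2-Aa at -1.03.

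The other genes of the pathway were read from short lists. Of 7 genes for the promoter-bound complex (Rfx5, Rfxap, Rfxank, Nfya, Nfyb, Nfyc and Creb1), none passed a threshold without the block. Their median log2 value was -0.13, and Rfxap, the highest with a mean of 8.28 FPKM, was at 0.00 (SE 0.184). Nfya, an NF-Y subunit, had 3.63, 3.83 and 3.50 FPKM in WT and 2.75, 2.51 and 2.33 in Scd-1-/- libraries, without overlap, at -0.52 (adjusted p = 0.329, and 0.0461 with the replicate block, edgeR).

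Interferon-gamma is an inducer of Ciita in many cells. Of 6 genes on the way from it to Ciita, Ifngr2, the second chain of its receptor, passed the study's thresholds in the lower direction, with 61, 158 and 130 counts in WT and 15, 18 and 35 in Scd-1-/- libraries (log2 fold change -2.43, SE 0.469, adjusted p = 0.0582, and 0.0016 with the replicate block, edgeR). Irf1, a transcription factor that acts on the Ciita promoter, had 11.8, 20.0 and 14.7 FPKM in WT and 7.83, 10.5 and 8.74 in Scd-1-/- libraries, without overlap, at -0.77 (adjusted p = 0.25, and 0.00946 with the replicate block, edgeR). Ifng, the cytokine itself, had 17.2, 3.13 and 2.68 FPKM in WT and 30.9, 11.6 and 11.7 in Scd-1-/- libraries, at 1.25 (adjusted p = 0.661, edgeR). With the block it was higher, at 1.57 (adjusted p = 0.00529, edgeR). Like H2-Ab1, H2-Oa and H2-Ob, it was high in replicate 1 of both genotypes. Ifngr1, the first chain and the highest of the list, was at 0.35 (adjusted p = 0.725, edgeR), and Jak1 and Jak2 at 0.15 and -0.05.

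Of 6 genes that prepare peptide or cut the invariant chain, none passed without the block. Ctss, the protease that trims the invariant chain, had 32.1, 28.9 and 31.6 FPKM in WT and 19.2, 20.8 and 21.3 in Scd-1-/- libraries, at -0.58 (adjusted p = 0.244, and 0.0307 with the replicate block, edgeR). Ctsd, a lysosomal aspartic protease and the highest of the list, was the other way, with 263, 233 and 213 against 351, 432 and 408 FPKM, at 0.76 (adjusted p = 0.0518, and 0.00529 with the block, edgeR). Ctsb, Ctsl, Lgmn and Ifi30 were within 0.09 of 0 on the log2 scale. Of the 2 genes for turnover, Cd83, which stabilizes class II on the surface of antigen-presenting cells, had 125, 63 and 75 counts in WT and 51, 26 and 20 in Scd-1-/- libraries, at -1.48 (adjusted p = 0.231, and 0.0118 with the replicate block, edgeR). Sppl2a, the protease that clears the last fragment of the invariant chain, was at 0.33 (adjusted p = 0.654, edgeR) with groups that did not overlap. H2-Eb2, a further beta chain gene beside H2-Eb1, had 7, 6 and 2 counts in WT and 3, 0 and 0 in Scd-1-/- libraries, where 0 allows up to 3 counts, for counting error only.

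Since B cells, dendritic cells and macrophages are rich in class II, their markers were read beside the set. Of 14 B cell genes, 3 had no count in any library (Ms4a1, Pax5 and Fcer2a), and 9, these 3 included, had at most 10 counts in every library. Cd79a had 2 counts in Scd-1-/- replicate 1 and none elsewhere. Bank1 had 6, 10 and 7 counts in WT and 2, 3 and 0 in Scd-1-/- libraries, without overlap, at -2.17 (adjusted p = 0.614, edgeR). The summed level of the list was 148 to 271 FPKM in WT and 99.3 to 148 in Scd-1-/- libraries. Most of it was Ighm, with 259, 182 and 136 FPKM in WT and 138, 94.5 and 102 in Scd-1-/- libraries, at -0.77 (adjusted p = 0.281, and 0.0103 with the replicate block, edgeR). Cd79b had 342, 278 and 307 counts in WT and 259, 93 and 123 in Scd-1-/- libraries, at -1.03 (adjusted p = 0.304, and 0.0193 with the block, edgeR). Fcmr, which was low in replicate 1 of both genotypes, had 33, 83 and 80 counts in WT and 42, 54 and 52 in Scd-1-/- libraries, at -0.47 (adjusted p = 0.77, edgeR). Ighd was at -0.10 (adjusted p = 0.979, edgeR), and Cr2 and Spib had at most 4 counts in any library. Cd22 had 25, 4 and 5 counts in WT and 10, 2 and 0 in Scd-1-/- libraries, high in replicate 1 of both genotypes, at -1.50 (adjusted p = 0.749, edgeR). Of the 11 genes of the list with a count, 8 had a log2 value below 0, beside 52.0% of all genes. Their median was -0.22 beside -0.02 over all genes. Some of these values rest on at most 10 counts in every library, and the part of B cell RNA in the class II values was not tested.

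Of 14 dendritic cell and macrophage genes, 6 had no count in any library (Xcr1, Clec9a, Siglech, Adgre1, Sirpa and Fcgr1), and Flt3, Csf1r and Lyz2 had at most 5. The list summed to 8.80 to 20.6 FPKM in WT and 12.4 to 37.3 in Scd-1-/- libraries, mostly Cd68 and Itgax. Itgax, an integrin that activated CD8+ T cells can also express, had 219, 39 and 49 counts in WT and 678, 186 and 157 in Scd-1-/- libraries, at 1.70 (adjusted p = 0.479, and 7.57e-04 with the replicate block, edgeR), which is opposite in direction to the class II genes. Itgax (4.64 times in WT and 3.77 times in Scd-1-/-) and Cd68 (2.08 and 3.02 times) were nonetheless higher in replicate 1 than in replicates 2 and 3, as H2-Ab1, H2-Oa and H2-Ob were, and their part in the class II values was not tested. Cd14 was higher past the study's thresholds, with 11, 5 and 4 counts in WT and 28, 42 and 40 in Scd-1-/- libraries (log2 fold change 2.41, adjusted p = 0.0956, and 0.0287 with the replicate block, edgeR). Of the 2 rows named Itgam, ENSMUSG00000030786 had 16, 0 and 5 counts in WT and 83, 13 and 16 in Scd-1-/- libraries, at 2.35 (adjusted p = 0.524, and 0.0464 with the block, edgeR) and also high in replicate 1 of both, and the other was at -0.83 (adjusted p = 0.782, edgeR). Of 4 genes for CD4 T cells, Cd4 had 8, 24 and 12 counts in WT and 5, 2 and 1 in Scd-1-/- libraries (-2.49, adjusted p = 0.344, edgeR), and Zbtb7b, the highest, was at 0.16. Of 7 genes for CD8 T cells, none passed in either fit. Cd3g, the highest, was at -0.01, and Cd8a, with groups that did not overlap, was at -0.47 (adjusted p = 0.315, edgeR).

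**Figure D5:**
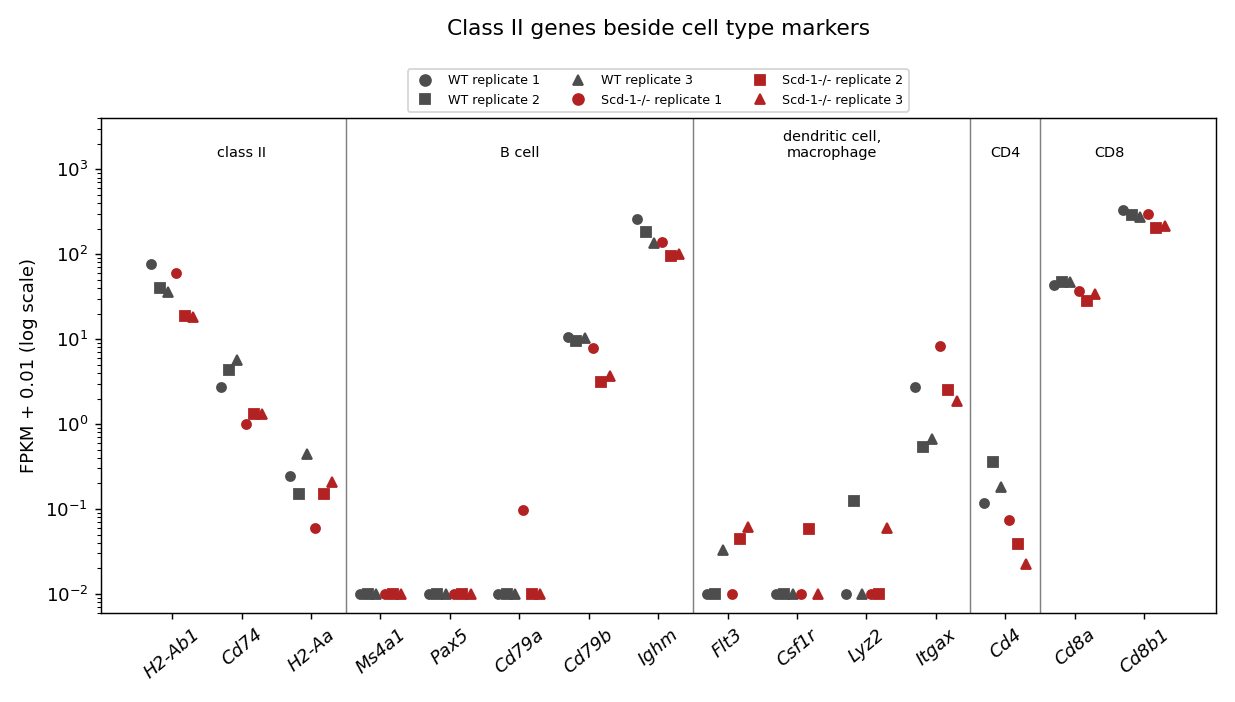
FPKM + 0.01 on a log scale for 3 MHC class II genes and for markers of B cells, dendritic cells and macrophages, CD4 and CD8 T cells, with 1 point for each library. WT is grey and Scd-1-/- red, and the shape gives the replicate number. Ms4a1 and Pax5 lie at the floor in all 6 libraries, whereas H2-Ab1 lies between 18.1 and 76.7 FPKM and Ighm between 94.5 and 259 FPKM.

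The genes outside the set whose log2 CPM followed the summed class II level most closely over the 6 libraries were Gsn (Pearson r = 0.997), Itga6 (0.996), Spock2 (0.995), H2-T22 (0.994) and Cit (0.993), with Spearman rho of 1, 0.886, 0.886, 0.886 and 0.943. They had the highest r among 9627 genes averaging 1 FPKM or more, the 6 points share their libraries and replicate structure, and H2-Ab1, H2-DMa and H2-Oa dominate the sum. Gsn, the actin-severing protein gelsolin, had 38.5, 23.7 and 24.5 FPKM in WT and 27.0, 11.1 and 10.8 in Scd-1-/- libraries, at -0.81 (adjusted p = 0.53, edgeR). H2-T22, a nonclassical class I gene, had 90.3, 79.9 and 75.5 FPKM in WT and 78.0, 53.0 and 53.4 in Scd-1-/- libraries. In both, replicate 1 was the highest library of its genotype, as in the class II sum.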

How the data were processed

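RNA-seq of 6 Teff libraries was analysed. The authors aligned reads with HISAT2 and counted them per gene with StringTie 1.3.0 on GRCm38 (submitters' processing notes). Strand setting and treatment of multi-mapped reads are not given in the sources used here. The methods name a stranded total RNA kit, whereas the labels name poly(A) RNA and another kit. TMM, FPKM conversion and edgeR are named as the authors' next steps. The authors deposited, per library, raw counts and FPKM of 34745 genes. The deposited FPKM equal count over length and library total within 0.00603%, so they hold no TMM factor.

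Counts of the 17192 genes with a count were tested with edgeR 4.0.16 (quasi-likelihood, TMM scaling, factors 0.980 to 1.02, no replicate block) in R 4.3.3, with Benjamini-Hochberg adjustment over all of them. SE were obtained from the F statistic. With 3 libraries against 3, an exact permutation test cannot give p below 0.1. A count of 0 allows up to 3 counts (0.189 to 0.214 CPM), for counting error only.

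Replicate numbers were checked by correlating deviations from group means over 9627 genes: r was 0.595, 0.306 and 0.470 for same-numbered libraries, and 0.180 and 0.380 for crossed replicates 2 and 3. The pairing comes from these values, not from the labels. Alternatives were a mean FPKM of at least 1, filterByExpr, median-ratio scaling, DESeq2 1.42.0, limma 3.58.1 on log2(FPKM + 1) and log2(FPKM + 0.1), the replicate block, replicates 2 and 3 only, and leaving out each library.

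Members and lists were chosen with earlier results of these data known. Named beside the members are listed genes past a threshold, highest of their list or without overlap, Scd1, and the 5 genes most like the summed members; other names were chosen after their values were seen. Some listed genes are not reported here. Positions are from GENCODE M21. Transcript identity was computed with edlib. The test was tried on simulated counts.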

Additional observations from a re-analysis of the deposited data

How the results depend on the processing

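With the replicate block, 6 of the 10 MHC class II genes instead of 1 had an adjusted p under 0.05 in the lower direction, and 4 instead of 3 passed the study's thresholds. With replicates 2 and 3 only, these counts were 8 and 5, where 1158 and 346 of all 16399 genes tested were so called. DESeq2's Wald test gave 4 genes with an adjusted p under 0.05, against 146 of all genes. In the other direction, the edgeR fits to a mean FPKM of at least 1 and with filterByExpr tested 8 members. None had an adjusted p under 0.05, against 4 and 6 of all genes in the lower direction. Limma on log2(FPKM + 1) and on log2(FPKM + 0.1) gave 0 and 0 members at that threshold, against 6 and 7 of all genes. Past the study's thresholds limma gave 1 and 1 members, against 14 and 44 of all 17192 genes. In each of these 4 fits, 6 members had an unadjusted p under 0.05, and the share of all genes at that p was not counted. Leaving out 1 library gave 0 (without Scd-1-/- replicate 2) to 6 genes (without Scd-1-/- replicate 1) past the study's thresholds, with 1 gene where WT replicate 2 or 3, or the third Scd-1-/- replicate, was missing, and 0 to 6 genes with an adjusted p under 0.05. Over all genes there were 15 lower genes past the thresholds (3 by adjusted p) without Scd-1-/- replicate 2 and 183 (236 by adjusted p) without Scd-1-/- replicate 1. Without WT replicate 1 there were 99 (112 by adjusted p), where the members' count past the thresholds went from 3 to 2. Without WT replicate 2, WT replicate 3 and Scd-1-/- replicate 3 there were 20, 41 and 35 (3, 8 and 4 by adjusted p). The log2 difference of Ciita, on 1 to 8 counts a library, turned to -0.011 with limma on log2(FPKM + 0.1), -0.089 with the block, -0.79 with replicates 2 and 3 only, -0.82 without Scd-1-/- replicate 1 and -0.19 without WT replicate 2, and lay between -0.82 and 0.53 when 1 library was left out. No other member changed sign. Limma on log2(FPKM + 1), a scale that understates changes of low genes, gave H2-Eb1 at -1.48 and H2-Ob at -0.95. Over all genes, 148 passed the study's thresholds and 84 had an adjusted p under 0.05 in the fit to all genes with a count, against 71 and 11 with a mean FPKM of at least 1 and 312 and 750 with the block. Smaller tables hold fewer genes and the fits without a library fewer samples, and otherwise the cause was not tested. Depth limits H2-Aa and Ciita, which had at most 16 and 8 counts in a library.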
